A study of Mus musculus with 4 samples.

Results

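The 44 genes described here encode the machinery that copies DNA in S phase: the factors that license origins, the replicative helicase and its activators, the clamp and its loader, the polymerases, the proteins that protect and join strands, and enzymes that make deoxynucleotides. They were chosen by name from knowledge of the pathway, with earlier results of these data known. Each gene was measured by the brightest probe whose RefSeq accession maps to it. All 44 were tested, among 25081 features of which 15089 are named genes. Their expression was compared between Sall1 knockout and control embryonic mouse kidneys on 4 one-colour Agilent arrays. The knockout group consisted of 2 samples titled with CreER and KO, and the control group of 2 samples titled with flox. Both groups were of mixed 129 and C57BL/6 strain background, received tamoxifen at E12.5 and were taken at E13.5, 24 hours later. Tamoxifen activates CreER, a Cre recombinase fused to part of an oestrogen receptor, and here served to delete Sall1, which encodes a nuclear zinc finger protein that nephron progenitors need. The labels name the line Sall1CreER and do not say which genotype at the Sall1 and CreER alleles each sample carried beyond this, whether a sample was 1 embryo or a pool, or which litter it came from, so an effect of CreER cannot be told apart from that of Sall1, and the tests rest on a spread between samples that may be technical.

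Before S phase the origin recognition complex, Cdc6 and Cdt1 load the ring-shaped MCM helicase onto DNA, and geminin blocks further loading. Cyclin E with its kinase, Mcm10, Cdc45 and the GINS complex then turn the loaded helicase on, after which polymerase alpha with primase starts each strand and polymerases delta and epsilon extend it on the PCNA clamp. Transcription of many of these genes is driven by E2F factors at the entry into S phase, so that their RNA is abundant in dividing tissues such as the branching kidney, where nephron progenitors, ureteric bud tips and stroma all cycle.

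Promoters were examined because shared E2F motifs are the best-known feature that such genes have in common. RefSeq promoter windows of assembly GRCm38.p6, 300 bases from 250 before to 50 after an annotated start, were listed for 35 of the 44 genes. The motif was searched on both strands as the 4 spellings TTTCCCGC, TTTCGCGC, TTTGCCGC and TTTGGCGC, which can overlap where matches face each other. At least 1 match was found for 14 of 35 replication genes (40.0%), against 704 of the 27025 genes in the whole table (2.60%), where genes with several windows had more than 1 chance. The windows below belong to Rfc3, Mcm7 and Mcm3, which had the lowest unadjusted p among the 44 genes, and to Mcm6, which held the most matches and differed little between groups; they were chosen after the values were seen, and capitals mark the motif matches.
Rfc3, chr5:151651159-151651458, minus strand: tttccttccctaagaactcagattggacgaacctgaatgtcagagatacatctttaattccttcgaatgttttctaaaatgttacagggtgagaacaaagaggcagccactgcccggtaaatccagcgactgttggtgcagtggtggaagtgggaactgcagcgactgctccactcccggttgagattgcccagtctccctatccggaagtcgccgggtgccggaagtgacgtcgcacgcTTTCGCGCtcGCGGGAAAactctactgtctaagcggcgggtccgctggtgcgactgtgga
Mcm7, chr5:138171834-138172133, minus strand: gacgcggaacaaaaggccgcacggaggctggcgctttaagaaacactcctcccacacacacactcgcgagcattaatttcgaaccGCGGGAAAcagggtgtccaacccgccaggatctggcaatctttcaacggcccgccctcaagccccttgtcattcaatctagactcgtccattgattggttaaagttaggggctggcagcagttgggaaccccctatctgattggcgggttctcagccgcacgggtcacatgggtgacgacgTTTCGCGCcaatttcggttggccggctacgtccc
Mcm3, chr1:20820263-20820562, minus strand: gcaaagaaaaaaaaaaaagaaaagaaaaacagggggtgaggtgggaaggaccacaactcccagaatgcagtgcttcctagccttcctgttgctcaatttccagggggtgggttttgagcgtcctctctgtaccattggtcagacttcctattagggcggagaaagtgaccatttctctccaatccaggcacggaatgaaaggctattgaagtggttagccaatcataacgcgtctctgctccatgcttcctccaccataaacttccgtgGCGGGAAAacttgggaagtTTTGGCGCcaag
Mcm6, chr1:128359656-128359955, minus strand: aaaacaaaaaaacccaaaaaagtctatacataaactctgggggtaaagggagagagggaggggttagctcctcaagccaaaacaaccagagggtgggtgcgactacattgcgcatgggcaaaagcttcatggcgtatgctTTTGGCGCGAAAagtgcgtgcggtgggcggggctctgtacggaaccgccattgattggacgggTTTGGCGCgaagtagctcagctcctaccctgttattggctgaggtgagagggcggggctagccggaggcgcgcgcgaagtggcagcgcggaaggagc
With the annotated start counted as 0, matches began at -10 and 0 for Rfc3, at -165 and 16 for Mcm7, at 19 and 38 for Mcm3, and at -110, -106 and -47 for Mcm6. Mcm7 also has a window at another annotated start that holds no match. The 14 genes with a match had a median log2 difference, knockout minus control, of -0.091, against -0.10 for the 21 genes with a window but no match and -0.12 for the 9 genes with no window. A match is a run of letters and not a measured binding site.

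Across the arrays, between 60.6% and 64.2% of the non-control spots were well above background, no spot was saturated, and the 75th percentile of the signal lay at 534 and 521 in the knockout and at 597 and 548 in the control arrays. Every value below is a log2 signal relative to that percentile of its own array. All 44 replication genes were well above background on all 4 arrays, so no value is a bound, and 36 of them were on average brighter than the 75th percentile. The targeted gene Sall1 had log2 signals of 1.03 and 1.07 in the knockout arrays, against 1.79 and 1.81 in the control arrays, a difference of -0.75 ± 0.056 (SE, n = 2 per group, limma adjusted p = 0.126). It passed under a variance prior that follows the signal (adjusted p = 0.00143), and no source used here says whether the probe lies within the deletion. Of 13 markers of nephron progenitors, the cells that define this tissue at this age, 13 were well above background on all 4 arrays.

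Nearly all of the replication genes had a slightly lower mean in the knockout kidneys, by small amounts that varied between genes, and no single gene passed the test. The median log2 difference was -0.10 over the 44 genes, against -0.013 over all features tested and -0.032 over the 11271 features brighter than the 75th percentile. The knockout mean lay below the control mean for 43 of 44 genes, where 53.6% of all features and 62.1% of the brighter ones did so. The one gene with a higher knockout mean was Ccne2. The differences ran from -0.22 for Orc1 to 0.096 for Ccne2. In limma, 0 of the 44 genes were called lower and 0 higher at an adjusted p under 0.05, as were 0 (0%) of all features in each direction. The adjusted p of the 44 genes ran from 0.358 to 0.969. At an unadjusted p under 0.05, 3 genes were lower (Rfc3, Mcm7 and Mcm3) and 0 higher, beside 5.93% of all features lower and 6.77% higher, and 5.81% of the brighter features lower. The 3 lower genes were thus a share of the 44 close to that of all features. The prior that follows the signal also called 0 of the 44, with a smallest adjusted p of 0.112, beside 0.654% of all features lower and 0.546% higher.

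**Figure D1:**
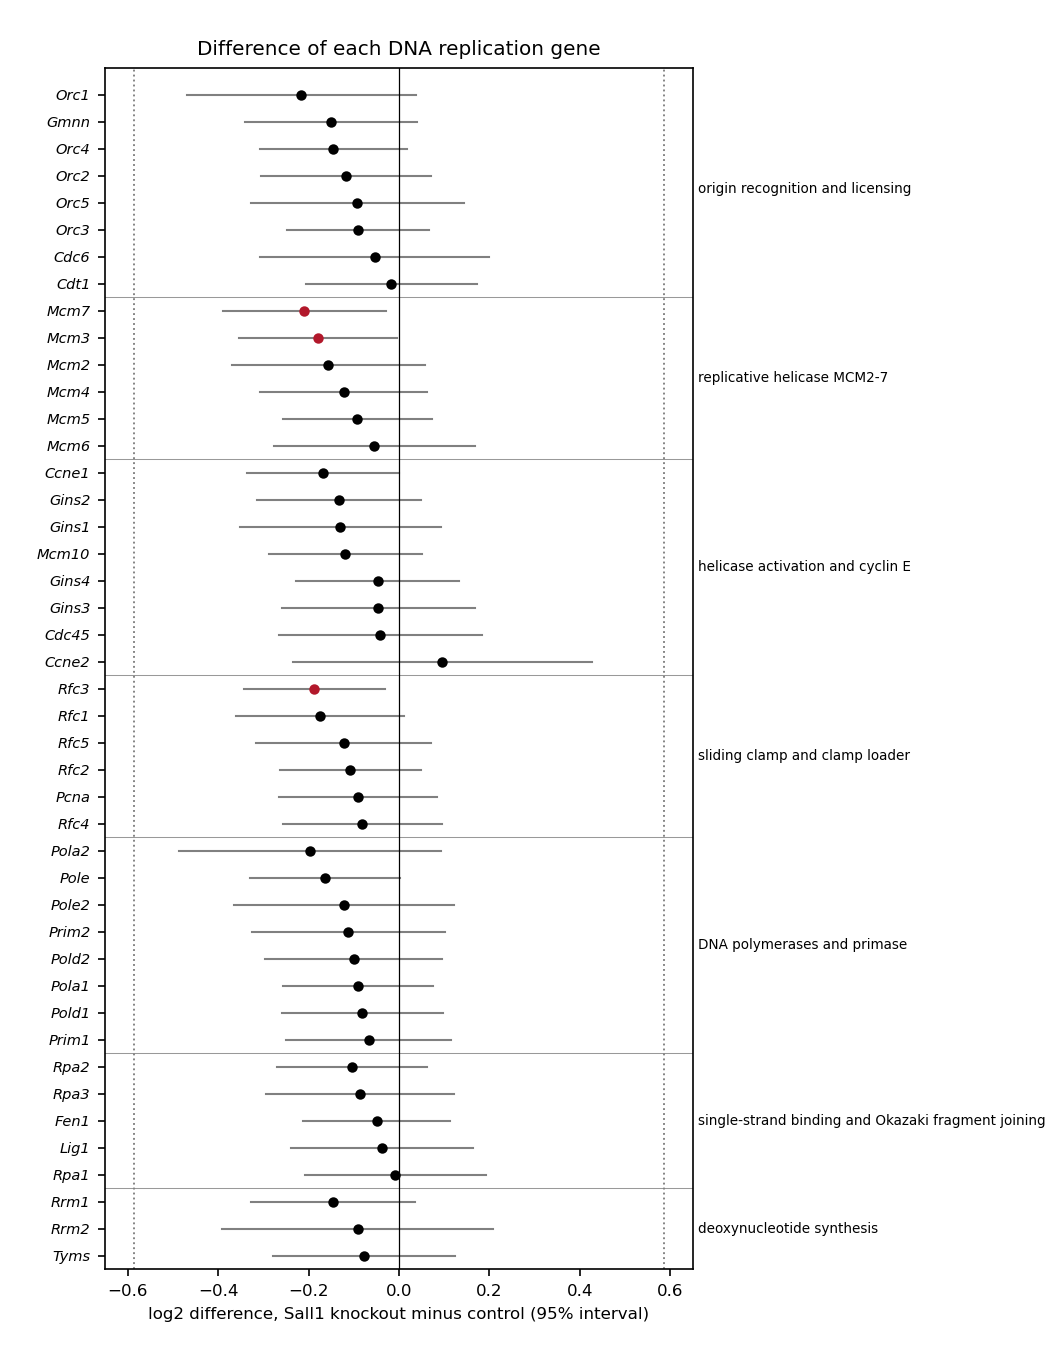
Log2 difference, Sall1 knockout minus control, of each DNA replication gene with its 95% interval from limma (x axis), by role of the gene (y axis); the dotted lines stand at 1.5-fold and red points have an unadjusted p under 0.05 (Mcm7, Mcm3 and Rfc3). The points lie between -0.22 and 0.096, 43 of 44 to the left of 0, and the 44 intervals lie inside the dotted lines.

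These intervals hold for each gene alone and not for the 44 jointly. They rest on a spread between 2 samples a group that may be technical. They thus describe the difference between these samples and set no bound on an effect of Sall1 loss. The 95% interval of the difference lay within 1.5-fold in either direction for 44 of 44 genes, from a lowest bound of -0.49 for Pola2 to a highest of 0.43 for Ccne2. It excluded 0 for Mcm7, Mcm3 and Rfc3 alone, before adjustment. The share of all features with an interval within 1.5-fold was not computed. The median SE was 0.066 over the 44 genes, 0.066 over the brighter features and 0.079 over all features, so narrow intervals are not particular to these genes. The groups did not overlap for 33 of the 44 genes, with both knockout values below both control values, beside 27.7% of all features and 37.0% of the brighter features. Both knockout values lay above both control values for 0 of the 44, beside 21.5% of all features.

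The arrays within a group also differed from each other. Relative to each gene's own mean over the 4 arrays, the median log2 signal of the 44 genes was -0.077 and -0.019 in the knockout arrays and 0.026 and 0.084 in the control arrays. The gap between the nearest arrays of different groups was thus smaller than the gap between the arrays within either group. Knockout replicate 2 exceeded knockout replicate 1 for 36 genes, by a median of 0.060, and control replicate 2 exceeded control replicate 1 for 38 genes, by a median of 0.062. Of all features, 45.3% were lower in knockout replicate 2 than in knockout replicate 1. In control replicate 2, 45.8% were lower than in control replicate 1. The median over all features was 0.014 in either comparison. Between single arrays, the median difference of the 44 genes was -0.11 for knockout 1 against control 1, -0.17 for knockout 1 against control 2, -0.049 for knockout 2 against control 1 and -0.096 for knockout 2 against control 2. The gene was lower in the knockout array for 41, 44, 34 and 43 of the 44 genes in these comparisons, in that order. For 27 of 44 genes the difference between the group means was larger than the gap between the arrays of either group. The share of all features for which this held was not computed, so the count has no background beside it. With 2 arrays a group an exact permutation test could not go below a two-sided p of 0.333, so it was not used for single genes.

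**Figure D2:**
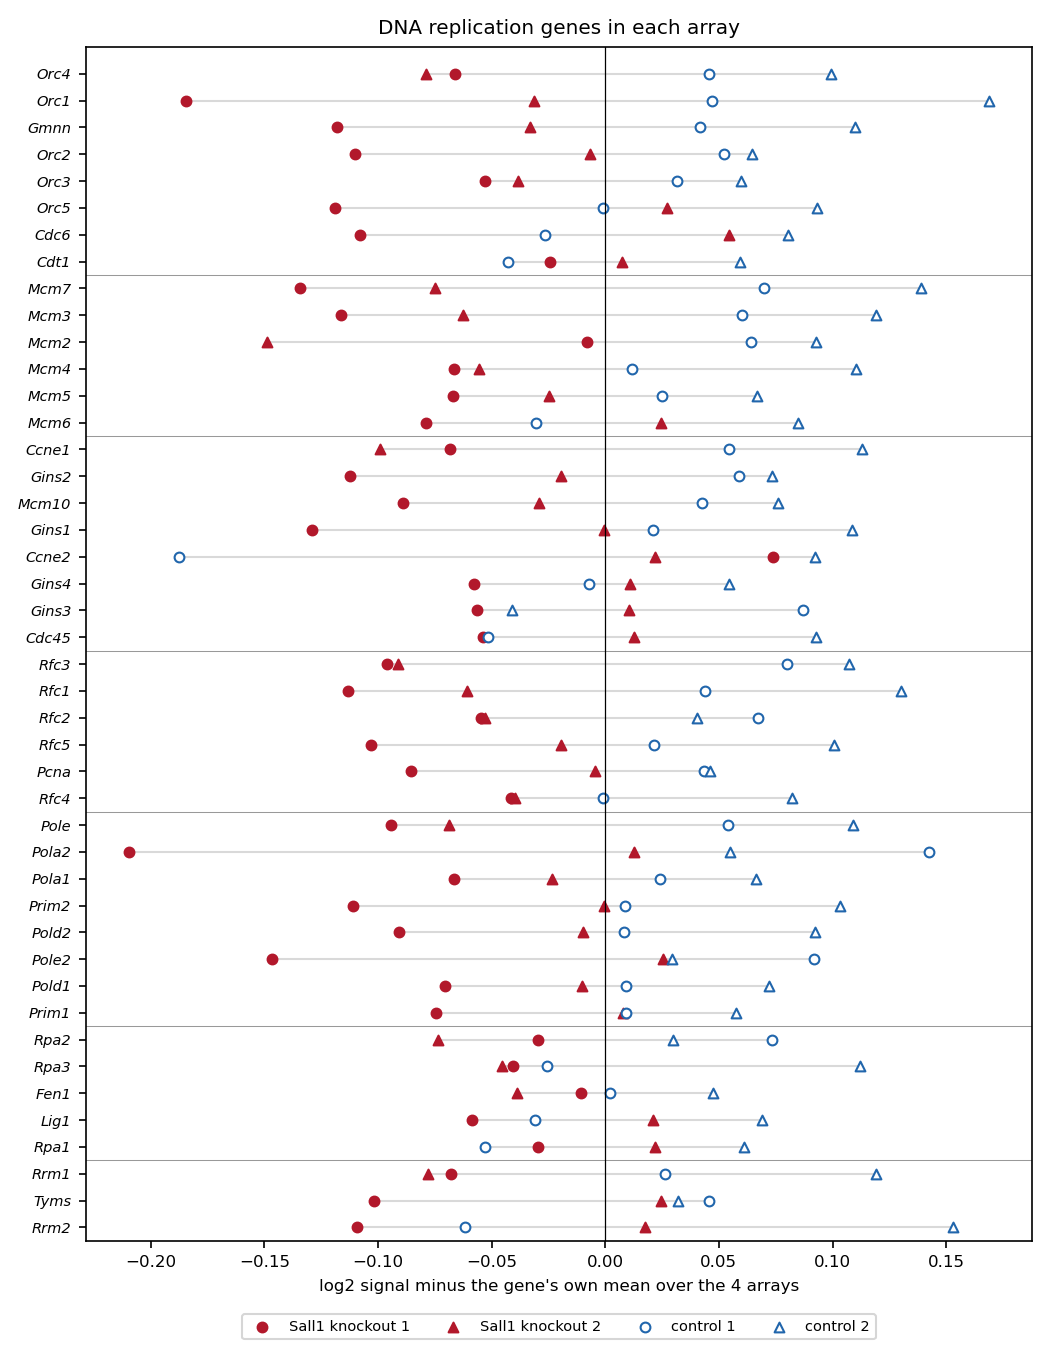
Log2 signal of each DNA replication gene in each array minus the gene's own mean over the 4 arrays (x axis), with filled red symbols for the 2 Sall1 knockout arrays and open blue symbols for the 2 control arrays, genes grouped by role (y axis). In 33 of 44 rows both red symbols lie left of both blue ones, and in most rows the triangle of a group (replicate 2) lies right of its circle (replicate 1).

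The counts without overlap in each role group below stand beside 27.7% of all features and 37.0% of the brighter features. The 44 genes also moved together between replicates, so such counts are not independent. Genes of origin recognition and licensing were lower by a median of -0.10 over 8 genes, 5 of them without overlap of the groups. Orc1, the largest subunit of the origin recognition complex and the one whose level changes through the cell cycle, had log2 signals of -2.19 and -2.03 in the knockout arrays, against -1.95 and -1.83 in the control arrays. Both knockout values were lower, by a difference of -0.22 ± 0.089 (SE, adjusted p = 0.436). Orc4, another subunit with ATPase folds, had -0.87 and -0.88 in the knockout arrays, against -0.75 and -0.70 in the control arrays, a difference of -0.14 ± 0.058. A dimmer Orc4 probe, also well above background on all 4 arrays, differed by 0.014 with overlapping groups, so the separation of Orc4 rests on 1 probe. Orc2, which belongs to the core of the complex, had -0.83 and -0.73 in the knockout and -0.67 and -0.65 in the control arrays. For Orc2 the upper knockout value lay close to the lower control value. Gmnn, which encodes the Cdt1 inhibitor geminin, had 1.34 and 1.43 in the knockout arrays, against 1.501 and 1.570 in the control arrays, a difference of -0.15 ± 0.067 without overlap. Of the other 4 genes, Orc3 did not overlap between the groups (-0.091), whereas Orc5 (-0.092), the loading factor Cdc6 (-0.054) and the loading factor Cdt1 (-0.017) did.

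The 6 subunits of the replicative helicase had the lowest median of the 7 role groups, -0.14, and 5 of them did not overlap between the groups. Mcm7 had log2 signals of 5.16 and 5.22 in the knockout arrays, against 5.36 and 5.43 in the control arrays. This was 1.16-fold lower, a difference of -0.21 ± 0.063 (SE, adjusted p = 0.363). Mcm3 had 4.59 and 4.65 in the knockout arrays, against 4.77 and 4.83 in the control arrays, and was 1.13-fold lower (-0.18 ± 0.061, SE, adjusted p = 0.387). For both subunits the gap between groups exceeded the gap between replicates, which was at most 0.069 for Mcm7. Mcm2, whose tail binds histones, had 3.12 and 2.98 in the knockout arrays, against 3.19 and 3.22 in the control arrays, and here the knockout arrays differed from each other almost as much as the groups did. Mcm4 had 5.07 and 5.08 in the knockout arrays, against 5.15 and 5.25 in the control arrays. Mcm5 differed by -0.092 without overlap. Mcm6 differed by -0.054 with overlapping groups, so the subunits of 1 ring were not all separated, although whether they differ from each other was not tested.

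The factors that activate the helicase and the E cyclins had a median of -0.083 over 8 genes, and 4 of them did not overlap. Ccne1, the cyclin E1 that drives the start of S phase, had log2 signals of 3.99 and 3.96 in the knockout arrays, against 4.11 and 4.17 in the control arrays, and was 1.12-fold lower (-0.17 ± 0.059, SE, adjusted p = 0.394). Its other probe was lower by nearly the same amount, -0.18. Ccne2, the related cyclin E2, had -4.11 and -4.16 in the knockout arrays, against -4.37 and -4.09 in the control arrays. The control values of Ccne2 enclosed both knockout values, so its positive difference of 0.096 ± 0.12 rests on control replicate 1. Gins2 had 1.88 and 1.98 in the knockout arrays, against 2.05 and 2.07 in the control arrays, and Gins1 had 2.45 and 2.58 in the knockout arrays, against 2.60 and 2.69 in the control arrays. Both are subunits of the GINS complex that joins the helicase, and both were lower in each knockout array than in each control array. Mcm10, which helps the helicase to open DNA, had 2.65 and 2.71 in the knockout arrays, against 2.78 and 2.82 in the control arrays. Gins4 (-0.047), Gins3 (-0.046) and Cdc45 (-0.041) overlapped between the groups.

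The clamp and its loader were lower in both knockout arrays than in both control arrays for 6 of 6 genes, with a median of -0.11. Of all features 27.7% were so, and 37.0% of the brighter ones. Rfc3, a small subunit of replication factor C, which opens the clamp and sets it on DNA, had log2 signals of 1.15 and 1.16 in the knockout arrays, against 1.33 and 1.36 in the control arrays. It had the smallest unadjusted p of the 44 genes, 0.0293 in limma, and was 1.14-fold lower (-0.19 ± 0.055, SE, adjusted p = 0.358). Rfc1, the large subunit, had 3.45 and 3.50 in the knockout arrays, against 3.60 and 3.69 in the control arrays, a difference of -0.17 ± 0.065. Rfc2 had 3.18 and 3.18 in the knockout arrays, against 3.30 and 3.27 in the control arrays, and Rfc5 had 3.86 and 3.94 in the knockout arrays, against 3.98 and 4.06 in the control arrays. In Rfc5 the upper knockout value came within 0.1 of the lower control value. The clamp gene Pcna itself differed by -0.090 and Rfc4 by -0.081, where a further Rfc4 probe gave -0.10.

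The polymerase and primase genes were also lower in both knockout arrays than in both control arrays for 8 of 8 genes, with a median of -0.11. The same shares of 27.7% of all features and 37.0% of the brighter ones stand beside this count. Pole, the catalytic subunit of the leading-strand polymerase epsilon, had log2 signals of 3.32 and 3.35 in the knockout arrays, against 3.47 and 3.52 in the control arrays (-0.16 ± 0.058, SE, adjusted p = 0.397). A further Pole probe lay on the other side of 0, at 0.74. It was well above background on 1 array only, so this value was not relied on. Pola2, a subunit of the polymerase that starts each strand, had -1.44 and -1.22 in the knockout arrays, against -1.09 and -1.18 in the control arrays. Its difference of -0.20 ± 0.10 was of the size of the gap between the knockout arrays. Pola1, the catalytic subunit of the same enzyme, had 2.13 and 2.18 in the knockout arrays, against 2.22 and 2.27 in the control arrays. Prim2, a primase subunit, had 0.97 and 1.08 in the knockout arrays, against 1.09 and 1.18 in the control arrays, where the nearest values of the groups almost met. The other primase gene Prim1 (-0.067), the polymerase delta genes Pold1 (-0.081) and Pold2 (-0.10) and Pole2 (-0.12) completed the group.

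Single-strand binding and fragment joining had the smallest median of the 7 role groups, -0.050 over 5 genes, of which 3 did not overlap. Rpa2, the middle subunit of the RPA complex that coats single-stranded DNA, had log2 signals of 1.49 and 1.45 in the knockout arrays, against 1.59 and 1.55 in the control arrays, a difference of -0.10 ± 0.058. Rpa3 had 3.77 and 3.76 in the knockout arrays, against 3.79 and 3.92 in the control arrays, so that its separation rested on 0.02 or less on the log2 scale. Fen1, the nuclease that trims Okazaki fragments, had 4.60 and 4.57 in the knockout arrays, against 4.61 and 4.66 in the control arrays. The values of Fen1 thus nearly touched. The large subunit Rpa1 differed by -0.0077 and Lig1, the ligase that seals the fragments, by -0.038, and both overlapped.

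For deoxynucleotide synthesis the median was -0.091 over 3 genes. Rrm1, the large subunit of ribonucleotide reductase, had log2 signals of 4.19 and 4.18 in the knockout arrays, against 4.28 and 4.37 in the control arrays (-0.15 ± 0.064, SE, adjusted p = 0.447). Rrm2, the small subunit of the same enzyme, had 4.87 and 4.99 in the knockout arrays, against 4.91 and 5.13 in the control arrays. Its groups overlapped, and the difference of -0.091 turned to 0.016 without control replicate 2. Tyms, which makes thymidylate, had -0.60 and -0.47 in the knockout arrays, against -0.45 and -0.46 in the control arrays, with knockout replicate 2 close to both control values. Of the 6 replication genes with another probe, those of Cdc6 (0.0017) and Orc4 (0.014) lay on the other side of 0. The dim further probe of Pole (0.74) did so too.

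Further genes of the pathway were listed by name. Over all features tested, 53.6% had a lower knockout mean, 27.7% lay below the controls without overlap and 21.5% above. At an unadjusted p under 0.05 in limma, 5.93% of all features were lower and 6.77% higher. Of 27 other replication factors, 25 had a lower knockout mean, 18 lay below the controls without overlap and 2 above, and the median was -0.12. In limma 0 of these passed in either direction, with 4 lower and 0 higher at an unadjusted p under 0.05. Orc6, the smallest origin recognition subunit, differed by -0.26 ± 0.060 (SE) and the nuclease Dna2 by -0.27 ± 0.074, whereas Cdc7, a kinase that fires origins, differed by 0.17 and Chtf8 by 0.037. Of 16 other genes of nucleotide synthesis and salvage, 15 had a lower mean and 14 lay below the controls without overlap, with a median of -0.15. The lowest unadjusted p belonged to Shmt1, which feeds one-carbon units to thymidylate synthesis (-0.29 ± 0.059, SE, adjusted p = 0.280), and the purine synthesis gene Atic (-0.22), while Samhd1, which breaks deoxynucleotides down, differed by 0.046. None of these 16 passed in limma (0 in each direction, 4 lower and 0 higher at an unadjusted p under 0.05).

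Genes of S phase chromatin and of mitosis were listed beside them. Of 7 genes of S phase chromatin, 0 passed, 2 were lower at an unadjusted p under 0.05 and the median was -0.16, with the histone chaperone Asf1a at -0.30 and the helicase Hells at -0.28, but Asf1b at 0.016 and Uhrf1 at 0.012. Of 15 genes of G2 and mitosis, 12 had a lower mean and 8 lay below the controls without overlap, beside 53.6% and 27.7% of all features, with a median of -0.068. In limma 0 passed, and 1 (Cenpf, -0.17) was lower at an unadjusted p under 0.05, a share close to the 5.93% of all features. Kif20a, a kinesin of cell division, differed by -0.18, whereas Aurkb, a kinase of chromosome segregation, differed by 0.13 and Ccnb1, the mitotic cyclin, by 0.028. The proliferation marker Mki67, singled out after its value was seen, differed by 0.0091 ± 0.076 (SE). Whether the replication genes differ from the mitosis genes was not tested.

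Of 26 regulators of the entry into S phase, 10 lay below the controls without overlap and 7 above, shares of 38.5% and 26.9% beside 27.7% and 21.5% of all features, and the median was -0.024. Cdkn1a, which encodes the p21 inhibitor of cyclin-dependent kinases, had log2 signals of -0.15 and -0.34 in the knockout arrays, against -0.80 and -0.81 in the control arrays. It was 1.47-fold higher (0.56 ± 0.088, SE) and did not pass in limma (adjusted p = 0.235), but did under the prior that follows the signal (adjusted p = 0.0338). Rbl2, a pocket protein that represses E2F targets in resting cells, differed by 0.21 ± 0.064. Tfdp1, the partner with which E2F factors bind DNA, differed by -0.22 ± 0.067 (SE). Cdk6, a kinase of the G1 phase, was not well above background on the knockout arrays and had to be higher in the controls to be tested, so it has only a bound, at least 1.35-fold lower, set by the dimmest signal well above background (limma adjusted p = 0.340). In limma 0 of 26 passed in either direction, with 4 lower and 3 higher at an unadjusted p under 0.05. Without Cdk6, 9 of 25 lay below without overlap and 3 were lower at that p.

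**Figure D3:**
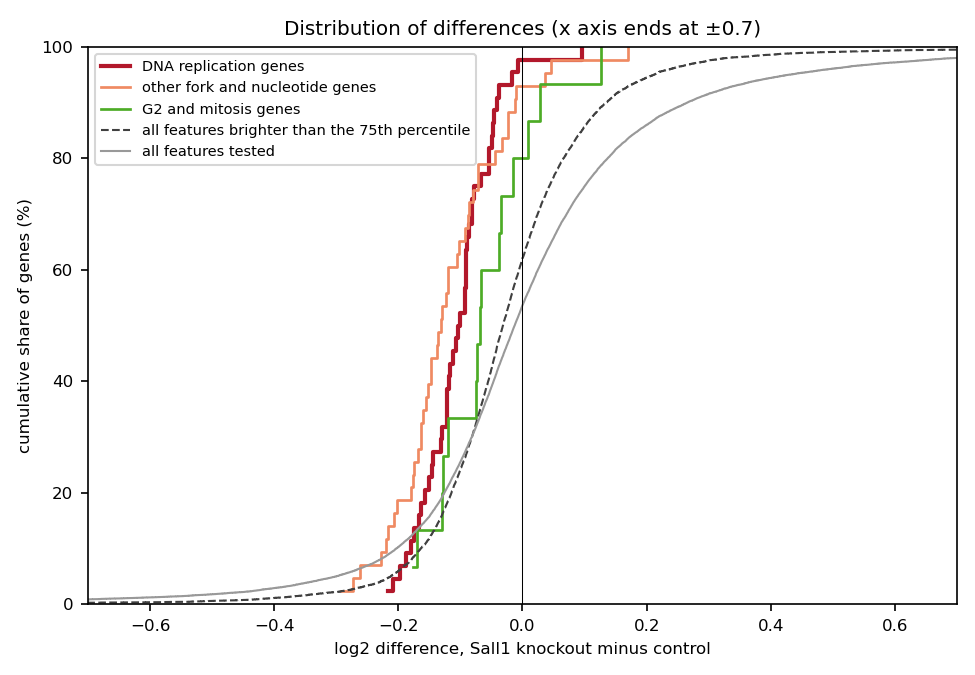
Cumulative share of genes (y axis, %) at or below each log2 difference, Sall1 knockout minus control (x axis), for the 44 DNA replication genes, 2 joined lists of other fork and nucleotide genes, the G2 and mitosis genes, and all features. The curve of the replication genes is steep and lies left of 0 for 43 of 44 genes, with a median of -0.10, beside medians of -0.032 for features brighter than the 75th percentile and -0.013 for all features.

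Markers of other cell types also differed between these arrays. Their counts stand beside 21.5% of all features above the controls without overlap and 27.7% below. Of 14 liver and gut markers 12 were tested, and 12 of 12 lay above the controls without overlap, with a median of 1.57. Their summed level, in units of the 75th percentile, was 46.8 and 43.1 in the knockout arrays, against 14.6 and 21.8 in the control arrays. Of 14 tested skeletal muscle markers 10 lay above without overlap and 1 below, with summed levels of 75.1 and 51.2 in the knockout arrays, against 43.1 and 19.5 in the control arrays. Of 13 tested macrophage and leukocyte markers 12 lay above without overlap, with summed levels of 13.4 and 11.4 in the knockout arrays, against 9.47 and 8.69 in the control arrays. Examples are the liver genes Trf (2.27-fold higher) and Ttr (3.49-fold higher), the muscle genes Tnnt3 (1.52-fold higher) and Des (1.43-fold lower), and the leukocyte genes Fcgr3 (1.49-fold higher) and Cx3cr1 (a log2 difference of 0.59), of which 0 passed in limma. Under the prior that follows the signal Trf (adjusted p = 0.00941), Cx3cr1 (0.0363) and Des (0.0458) did. The muscle marker Mylpf was well above background on 3 of 4 arrays.

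Of the 12 tested erythroid markers, 1 (the transcription factor gene Klf1) lay above the controls without overlap, while Gata1, another such factor gene, overlapped. This share of 8.33% lay below the 21.5% of all features. The summed levels of the erythroid markers were 959 and 1660 in the knockout arrays, against 908 and 1528 in the control arrays, higher in replicate 2 of either group. In both groups the array with the larger erythroid sum was also the one with the higher median of the replication genes. The same arrays had the smaller muscle and leukocyte sums. Their median over all features, taken relative to each feature's own mean, was also higher. It was 0.0033 against -0.013 in the knockout arrays and 0.016 against 0.0035 in the control arrays. No link between these values was tested. Of 13 nephron progenitor markers 11 lay below the controls without overlap, beside 27.7% of all features. Their summed levels were 102 and 111 in the knockout arrays, against 155 and 149 in the control arrays. Cited1 was 4.60-fold and Osr1 1.81-fold lower, and 7 of the 13 passed under the prior that follows the signal, against 0 in limma. The part of any of these cells in the values of the replication genes was not tested, and in such whole-organ RNA fewer cycling cells and less RNA per cell cannot be told apart.

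**Figure D4:**
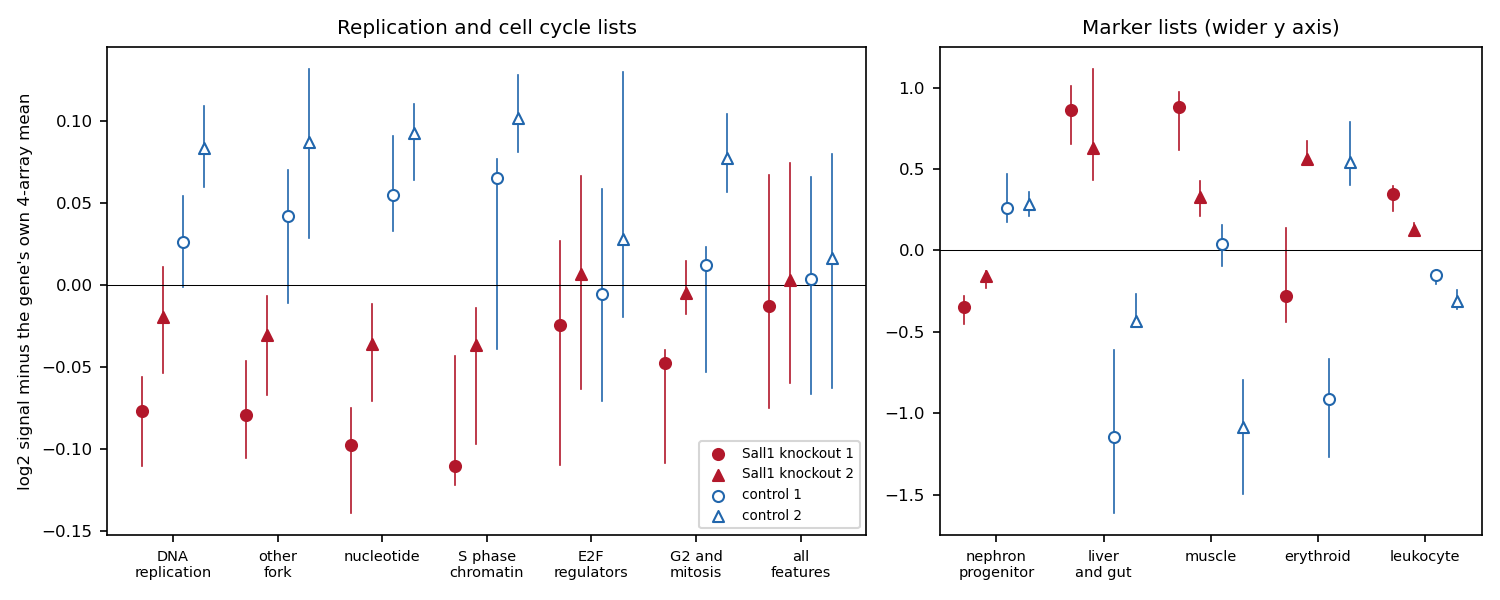
Median over each list of the log2 signal minus the gene's own mean over the 4 arrays (y axis), with bars from the 25th to the 75th percentile over genes, for the 2 Sall1 knockout arrays (filled, red) and the 2 control arrays (open, blue). The replication genes stand at -0.077 and -0.019 in the knockout arrays and at 0.026 and 0.084 in the control arrays; the marker lists in the right panel span a wider axis, and the erythroid median is higher in replicate 2 than in replicate 1 of either group.

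The small shift of the replication genes was seen under each processing setting tried. Their median log2 difference ran from -0.14 with median centring to -0.075 with cyclic loess normalization, which was chosen after the data were seen because most of the genes are bright. With 1 array left out it ran from -0.14 without knockout replicate 2 to -0.070 without knockout replicate 1. The number of genes with a lower knockout mean was 39 with quantile normalization, 40 with cyclic loess and 37 without control replicate 2. Relative to the median of all features, which itself lay between -0.050 and 0.027, the genes were lower in each setting.

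**Figure D5:**
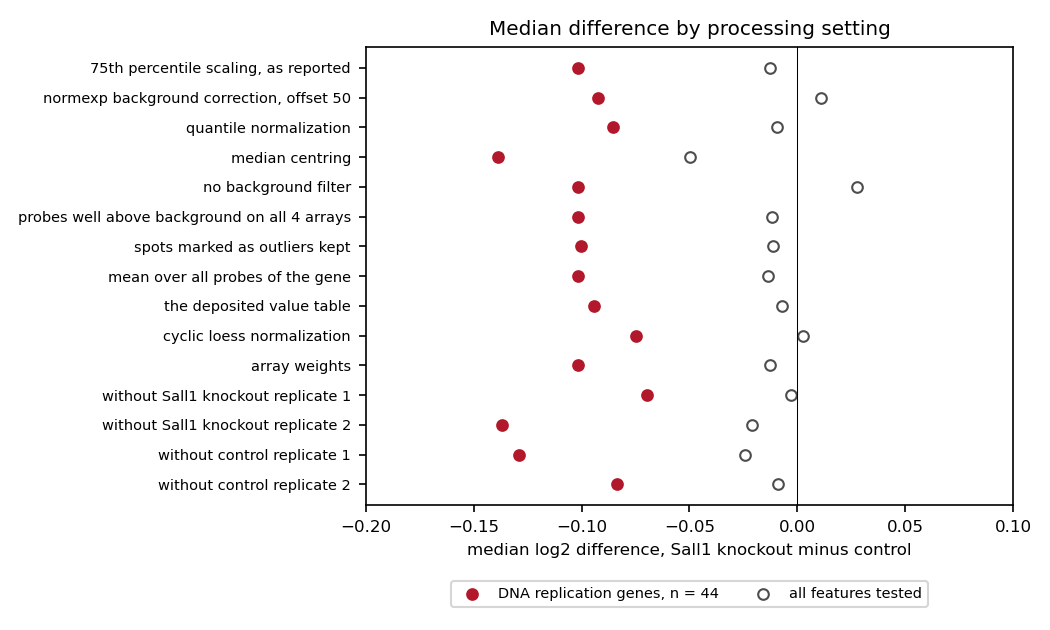
Median log2 difference, Sall1 knockout minus control (x axis), of the 44 DNA replication genes (red) and of all features tested (open) under each processing setting (y axis). The red points lie between -0.14 and -0.070 and left of the open point of the same setting.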

How the data were processed

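RNA of embryonic kidneys was hybridised, per the labels, as Cy3-labelled cRNA made from 0.25 µg of total RNA, 2 arrays per genotype; groups came from the genotype label and replicates were numbered in sample order. Per the file headers, the deposited signals are intensities on a linear scale, made by the authors with Agilent Feature Extraction 10.7.3.1 for design 028005 (mm9), corrected for background and trends within an array, without scaling between arrays. Values in the series' deposited table equalled this intensity within 1% in 100% of the 55249 rows that rest on 1 spot.

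Here signals were divided by the 75th percentile of non-control spots without outlier marks, set to log2 and averaged over the spots of a probe. A probe was kept (34258 of 55681) if either group had it well above background on both its arrays, and the brightest probe stood for a gene. Symbols came from RefSeq accessions (GRCm38.p6 table), which matched 26413 probes. The test was two-sided, from eBayes with its default prior after lmFit (limma 3.58.1, R 4.3.3; 2 residual and 1.79 prior degrees of freedom), with Benjamini-Hochberg adjustment over 25081 features. SE and 95% intervals are those of this fit, which was tested on simulated data. Precision is limited by having 4 arrays.

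The members and lists were chosen with earlier results of these data known. Values in every array are given for the 4 genes of each role group with the smallest unadjusted p (3 in groups under 6), with the higher Ccne2 added. In each further list the 2 genes with the smallest p in each direction, or overall for markers, are named, and values in every array are given for Cdkn1a. The alternatives were normexp (offset 50, on the median spot signal), quantile, median and cyclic loess normalization, other filters, outlier marks, probe averaging, a trended robust prior, array weights, the value table, an adjusted p under 0.1 and each array left out.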

Additional observations from a re-analysis of the deposited data

How the results depend on the processing

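Over 44 replication genes, limma called 0 under each alternative run on all 4 arrays, including an adjusted p under 0.1. At an unadjusted p under 0.05 there were 0 to 12 genes (12 with the trended robust prior, 6 with normexp, 5 with median centring, 0 without a background filter). The share of all features at that p was not computed for these alternatives, so these counts have no background beside them. Of the 26 replication genes followed under each alternative, Rrm2 alone turned, to 0.016 without control replicate 2 (-0.20 without control replicate 1). Among the other 18, Cdt1, Mcm6, Cdc45, Lig1 and Rpa1 also had a higher knockout mean without control replicate 2, Cdc6, Lig1 and Rpa1 without knockout replicate 1, and Gins3 without control replicate 1. The number without overlap of the groups, in either direction, ran from 27 (cyclic loess) to 33, and from 33 to 43 with 1 array left out, where 1 array stands for a group. With an array left out, any feature meets this more easily. The share of all features without overlap was not computed for these runs, so these counts have no background beside them. Leaving out an array gave medians of the replication genes from -0.14 to -0.070. Over all features the count of calls was 41 with normexp, 4 with cyclic loess, 301 with the trended robust prior and 21 at an adjusted p under 0.1, against 0 as reported, and 0 with any array left out; under that prior 1 other pathway gene (Cdkn1a), 7 nephron progenitor, 2 liver and gut, 1 muscle and 1 leukocyte marker passed. The median of all features turned to 0.011 with normexp, 0.027 without a filter and 0.0027 with cyclic loess, and that of the S phase regulators to 0.0015 with quantile normalization and 0.0093 with cyclic loess. The leukocyte median was 0.33 with normexp, against 0.50. With 1 array left out the medians ran from -0.60 to -0.39 for nephron progenitors, 1.21 to 1.99 for liver and gut, 0.53 to 1.71 for muscle, -0.37 to 1.02 for erythroid and 0.36 to 0.58 for leukocyte markers. The cause of these changes was not tested. No paired analysis was possible because the labels give the groups no shared replicate numbers.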

Other observations

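Among the S phase regulators, other inhibitors, pocket proteins and E2f5 were looked at after their values were seen. Cdkn2c, an inhibitor of Cdk4 and Cdk6, differed by 0.26 ± 0.088 (SE) and the inhibitor Cdkn1b by 0.25. The inhibitor Cdkn1c lay on the other side of 0, at -0.18. Of the pocket proteins, Rbl1 differed by -0.17 and Rb1 by 0.073. E2f5, an E2F factor that acts mainly as a repressor, differed by -0.20, and none of these genes passed in limma. Of the other fork factors, Dbf4, the activator of the Cdc7 kinase, differed by -0.22 while Cdc7 differed by 0.17, so the subunits of 1 kinase lay on opposite sides of 0. The cyclin E pair did so too, with Ccne1 at -0.17 and Ccne2 at 0.096. A difference between the members of either pair was not tested.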
